A study of Mus musculus with 6 samples.

Results

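The genes described here are Ret, its 4 co-receptor genes Gfra1, Gfra2, Gfra3 and Gfra4, and Kit, in pools of mouse dorsal root ganglion neurons. They were taken by their symbols in the array's annotation and are 6 of 18193 genes; together they have 14 of the 34945 probe sets that carry 1 gene symbol. For each gene the probe set with the highest mean level over all arrays leads, and the other sets are given beside it. The data were 6 Affymetrix expression arrays of total RNA, each from 1 pool of neurons. A pool of code L3-B had 50 control neurons, and a pool of code L3-S or L6-R had 20 neurons labelled retrogradely with DiI, a lipophilic dye carried back along the axon to the cell body. Each of these 3 codes had 1 array of big neurons and 1 array of medium to small neurons. The labels do not expand the codes, and the site of DiI, the strain, age and sex of the mice, and the number of animals behind the pools were not stated in the labels. Control and labelled pools also differed in the number of neurons, so these 2 differences cannot be told apart.

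RET is a receptor tyrosine kinase that binds ligands of the glial cell line-derived neurotrophic factor (GDNF) family through a membrane-anchored co-receptor. GFRα1 prefers GDNF, GFRα2 neurturin, GFRα3 artemin and GFRα4 persephin, and the co-receptor therefore sets which ligand a RET-bearing neuron can answer. In the dorsal root ganglion, Ret is known from non-peptidergic nociceptors and from several kinds of touch neurons, Gfra3 from peptidergic nociceptors, and Kit, the receptor for stem cell factor, from a subset of sensory neurons.

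Signals are the authors' linear intensities, and the mean of each array, after removal of 2% of values at each end, was 150.001. Between 55.3% and 59.6% of the probe sets of an array read under 32, a range in which differences cannot be resolved. The 8 pan-neuronal markers, among them Tubb3 and Snap25, read at least 32 on every array. So did 6 of 8 markers of satellite glia and Schwann cells, so these readings show neuronal RNA on each array but not its purity. The ratio of the 3′ to the 5′ control probe sets of Actb, a measure of RNA integrity and amplification, ran from 3.73 on the L3-B medium to small array to 13.9 on the L3-B big array. Differences are on the log2(signal + 32) scale, from 1 limma fit of code and size class to all 6 arrays. There was 1 array for each combination, so the errors and adjusted p-values (Benjamini-Hochberg over the 9097 genes tested, threshold 0.05) measure only the spread left after that fit, which may be technical. The comparisons between codes share arrays and are not independent of one another. In pooled neurons, fewer cells that express a gene and less RNA per cell cannot be told apart, and levels of different probe sets are not compared.

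Of the 6 genes, Gfra3 and Kit passed the test between codes, and Ret, Gfra1, Gfra2 and Gfra4 did not. Both Gfra3 calls held when dim genes were kept (adjusted p at most 0.0386 over all alternatives), but both Kit calls were lost then (adjusted p = 0.0670 and 0.0687). Gfra3 was higher in L6-R than in either other code, and Kit, with that limit, was higher in L3-S than in either other code. Between L6-R and L3-S, 1 of the 6 rose (Gfra3) and 1 fell (Kit), where 3.18% of all tested genes were called (289 genes, of which 115 rose and 174 fell). Between L3-S and L3-B, Kit alone of the 6 was called, as a rise, and 1.02% of all genes were called (84 rose and 9 fell). Between L6-R and L3-B, Gfra3 alone was called, as a rise, and 7.51% of all genes were called (424 rose and 259 fell). The median difference of the 6 genes in these comparisons was 0.51, 0.36 and 0.15, against -0.01, 0.03 and 0.02 over all tested genes. All 6 passed the filter on dim genes, a mean of at least 6.41, but Gfra3 and Kit averaged 5.96 and 6.34 in L3-B and so passed through the codes in which they were high. Gfra4, which was not called, averaged 6.22 in L6-R and passed through L3-B and L3-S.

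**Figure D1:**
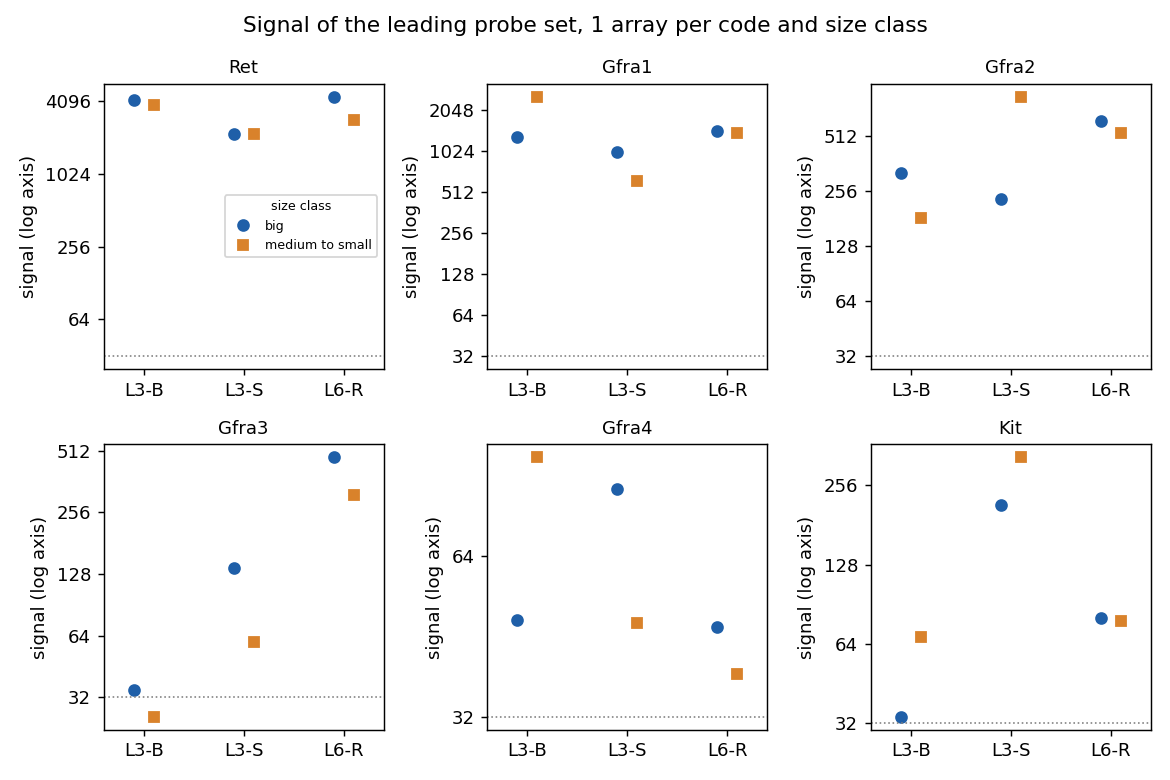
Signal of the leading probe set of each of the 6 genes (log axis, arbitrary intensity units, 1 range per panel) by code, with 1 point per array; circles are big and squares are medium to small neurons, and the dotted line marks a signal of 32. Both L6-R points of Gfra3 (476 and 311) lie above its other 4 points, and both L3-S points of Kit (216 and 327) lie above its other 4 points.

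Ret, on chromosome 6, encodes the signalling receptor that the 4 co-receptors share. Its leading probe set 1436359_at read 4150.2 in big and 3775 in medium to small L3-B neurons, 2198 and 2187 in L3-S neurons, and 4433 and 2857 for L6-R neurons. Both L3-S arrays were the lowest, and the L3-B and L6-R arrays overlapped. The L3-S level was below L3-B by 0.91 log2 in big and 0.78 in medium to small neurons, and the fitted difference of -0.84 ± 0.24 (SE, n = 2 arrays per code) did not pass (95% confidence interval -1.40 to -0.29, limma adjusted p = 0.208). The difference of L6-R from L3-S was 0.69 ± 0.24 (0.13 to 1.25, adjusted p = 0.201), and that of L6-R from L3-B was -0.15 (-0.71 to 0.41, adjusted p = 0.782). With the Actb ratio as a covariate the difference of L3-S from L3-B was of the same size and passed (adjusted p = 0.0330). That fit has fewer residual degrees of freedom and called 512 genes against 93 in this comparison. This pass is therefore not read as support. The second probe set, 1421359_at, read 159, 438, 158, 86.5, 198 and 120.1 in the same order of arrays. It gave a difference of L3-S from L3-B of -0.01 in big and -1.99 in medium to small neurons, so only the latter lay in the direction of the leading set by more than 0.1 log2.

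Gfra1, on chromosome 19, encodes the co-receptor for GDNF. Its leading probe set 1439015_at read 1298 and 2566 for L3-B, 1004 and 617 for L3-S, and 1431 and 1376 for L6-R, big neurons first. The highest array was L3-B medium to small, the lowest was L3-S medium to small, and both L3-S arrays lay below the other 4. The fitted difference of L3-S from L3-B was -1.18 ± 0.36 (-2.00 to -0.36, adjusted p = 0.226); it was -0.36 in big and -2.00 in medium to small neurons. The difference of L6-R from L3-S was 0.81 ± 0.36 (-0.01 to 1.62, adjusted p = 0.323), and that of L6-R from L3-B was -0.37 ± 0.36 (-1.19 to 0.44, adjusted p = 0.606). Dropping the big array of L3-B or of L3-S enlarged the difference of L3-S from L3-B, to -1.85 or -1.75. Dropping the medium to small array of L3-B or of L3-S instead shrank that difference, to -0.52 or -0.62. With the Actb ratio as a covariate the difference of L3-S from L3-B was -1.09 (adjusted p = 0.00362). That of L6-R from L3-S was 0.84 with this covariate (adjusted p = 0.0142). These passes with the covariate are not read as support.

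The other Gfra1 probe sets had lower signals that crossed 32. Set 1450440_at read 20.6 and 166 for L3-B, 46.9 and 9.57 for L3-S, and 65.8 and 56.5 for L6-R, and set 1421973_at read 3.24 and 143, 11.4 and 17.7, and 83.8 and 53.0. The highest value of each of the 3 sets was on the L3-B medium to small array. The difference of L3-S from L3-B in medium to small neurons was -2.25 and -1.82 for these sets, but in big neurons it was 0.58 and 0.30, opposite to the leading set. The L3-B medium to small array also had the lowest Actb ratio, 3.73, and the part of RNA integrity in the Gfra1 and Ret differences was not tested.

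Gfra2, on chromosome 14, encodes the co-receptor for neurturin, and its pattern over size classes was not shared between codes. Its leading probe set 1433716_x_at read 323 and 183 for L3-B, 233 and 843 for L3-S, and 617 and 529.6 for L6-R, big neurons first. The highest array was L3-S medium to small, and both L6-R arrays lay above both L3-B arrays. The difference of L6-R from L3-B was 1.13 ± 0.49 (-0.00011 to 2.26, adjusted p = 0.231), with 0.87 in big and 1.39 in medium to small neurons. It was 0.97 with the Actb ratio as a covariate (adjusted p = 0.0136), a pass that is not read as support. It was 1.87 without the L3-B big array and 0.39 without the other L3-B array. Without either L3-S array it stayed at 1.13, with a smaller SE (0.26). The fitted differences of L3-S from L3-B and of L6-R from L3-S were 0.80 ± 0.49 (-0.33 to 1.93, adjusted p = 0.699) and 0.33 ± 0.49 (-0.80 to 1.45, adjusted p = 0.812). The L3-S medium to small array decided the first of these, since without it the difference was -0.29, whereas without the L3-S big array it was 1.90. The difference of L6-R from L3-S was 1.42 with the L3-S medium to small array left out and -0.77 without the L3-S big array.

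Gfra2 had 4 further probe sets. Set 1459847_x_at read 88.4 and 61.1 for L3-B, 77.0 and 183 for L3-S, and 112 and 138 for L6-R, again highest on the L3-S medium to small array. Set 1425579_at read 46.7 and 65.4, 32.6 and 58.4, and 21.5 and 29.6, with both L6-R arrays the lowest. Sets 1423007_a_at and 1425578_a_at read under 32 on every array. The suffix x marks sets with probes that can match other transcripts, and without the 2 such sets the difference of L6-R from L3-B, in a fit of all genes, was -0.61 (adjusted p = 0.217) and thus opposite in sign to the leading set.

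Gfra3, on chromosome 18, encodes the co-receptor for artemin and has 1 probe set, 1418880_at. It read 34.8 and 25.8 for L3-B, 138 and 59.6 for L3-S, and 476 and 311 for L6-R, big neurons first. The arrays of the 3 codes did not overlap, with L3-B at or near a signal of 32, L3-S between and L6-R highest. In L6-R it was higher than in L3-S by 1.74 ± 0.25 log2 (1.18 to 2.30, adjusted p = 0.00858), or 3.35-fold on the shifted scale, and higher than in L3-B by 2.75 ± 0.25 (2.19 to 3.31, adjusted p = 0.000592). The L3-B signals lay at or near 32, so no fold is given against them, and the size of this difference depends on the pseudocount (3.64 with a pseudocount of 1 and 1.70 with the highest one used). The rise over L3-S was 1.58 in big and 1.90 in medium to small neurons, and that over L3-B was 2.93 and 2.57. The difference of L3-S from L3-B, 1.00 ± 0.25 (0.44 to 1.57, adjusted p = 0.122), did not pass, so these neighbours in the order of levels were not separated. With the Actb ratio as a covariate it was 1.04 (adjusted p = 0.00540), in a fit that called more genes in every comparison.

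Gfra4, on chromosome 2, encodes the co-receptor for persephin and has 1 probe set, 1450835_a_at, whose mean level of 6.50 lay just above the filter at 6.41. It read 48.5 and 98.0 for L3-B, 85.5 and 48.0 for L3-S, and 47.2 and 38.4 for L6-R. The 3 codes overlapped except that both L6-R arrays lay below the other 4. None of the differences passed: -0.38 ± 0.31 for L6-R minus L3-S (-1.08 to 0.33, adjusted p = 0.617), -0.08 ± 0.31 for L3-S minus L3-B (-0.78 to 0.63, adjusted p = 0.988) and -0.45 ± 0.31 for L6-R minus L3-B (-1.16 to 0.25, adjusted p = 0.450). The intervals reach to about 1 log2, and differences of that size could not be resolved in 2 arrays per code.

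Kit, on chromosome 5, encodes the stem cell factor receptor, a receptor tyrosine kinase outside the GDNF family. Its leading probe set 1452514_a_at read 33.9 and 68.0 for L3-B, 216 and 327 for L3-S, and 80.7 and 78.0 for L6-R, big neurons first. Both L3-S arrays were the highest, and both L6-R arrays lay above both L3-B arrays. In L3-S it was higher than in L3-B by 1.88 ± 0.25 log2 (1.31 to 2.44, adjusted p = 0.0144), with 1.91 in big and 1.84 in medium to small neurons. From L3-S to L6-R it fell by 1.42 ± 0.25 (-1.99 to -0.86, adjusted p = 0.0203), with -1.14 in big and -1.71 in medium to small neurons. The difference of L6-R from L3-B, 0.46 ± 0.25 (-0.11 to 1.02, adjusted p = 0.334), did not pass, so the order of L6-R and L3-B was not resolved.

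The lower Kit signal in L6-R was no longer called with the L6-R medium to small array left out (-1.12, adjusted p = 0.257), with the L3-S medium to small array left out (-1.30, adjusted p = 0.0524), with a pseudocount of 1 (-1.73, adjusted p = 0.0561) or when dim genes were kept (adjusted p = 0.0670), and the rise in L3-S was lost when dim genes were kept (adjusted p = 0.0687). The second Kit probe set, 1415900_a_at, read under 32 on every array, with 4.81 and 17.1 for L3-S. It thus did not repeat the rise in L3-S, but it lay in the range where differences cannot be resolved. With the mean of both sets the difference was -0.73 for L6-R minus L3-S (adjusted p = 0.109) and 0.86 for L3-S minus L3-B (adjusted p = 0.144).

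**Figure D2:**
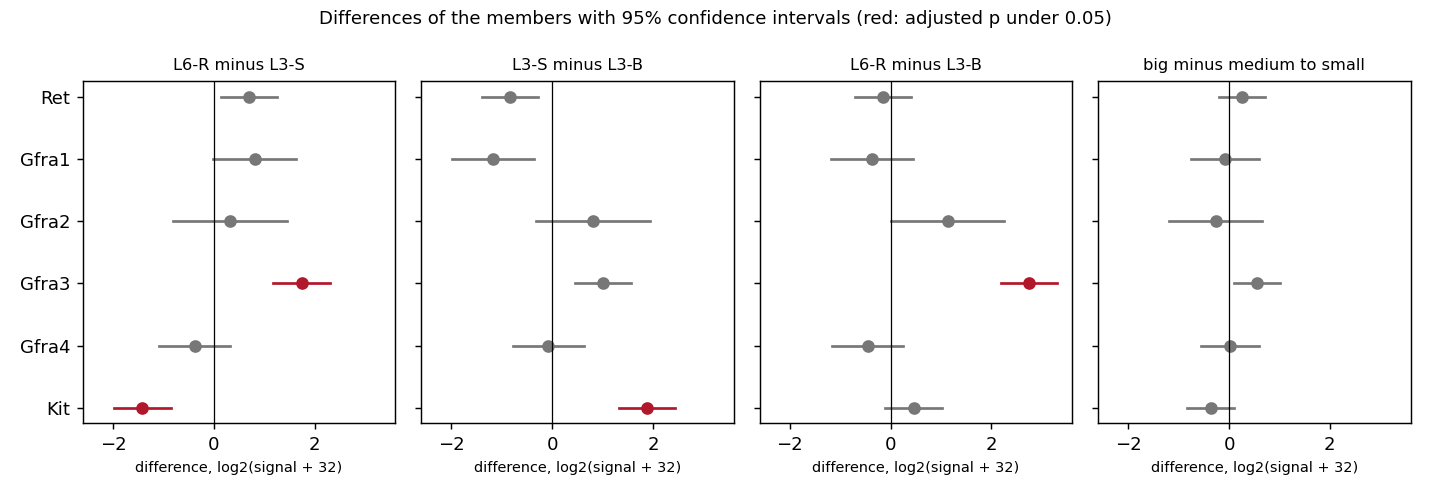
Fitted difference of each of the 6 genes in the 3 comparisons of codes and in big minus medium to small neurons (x axis, log2(signal + 32)), with 95% confidence intervals of the limma fit to 6 arrays; red marks an adjusted p under 0.05. Gfra3 is red for L6-R against L3-S (1.74) and L3-B (2.75), Kit is red for L6-R minus L3-S (-1.42) and L3-S minus L3-B (1.88), and no gene is red for size.

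Size class gave no call for any of the 6 genes. In limma's fit, 0 of the 9097 tested genes (0%) passed for big minus medium to small neurons, and 320 had an unadjusted p under 0.05. Gfra3 was the 1 of the 6 genes among them, with 0.55 ± 0.20 (0.10 to 1.01, unadjusted p = 0.0233, adjusted p = 0.998), and it was higher in big neurons by 0.21 in L3-B, 0.89 in L3-S and 0.57 in L6-R. Ret differed by 0.26 ± 0.20 (-0.20 to 0.71) and was higher in big neurons by 0.14, 0.01 and 0.63 for L3-B, L3-S and L6-R. Kit differed by -0.37 ± 0.20 (-0.83 to 0.09), with -0.60, -0.53 and 0.03. For Gfra1, Gfra2 and Gfra4 the sign of the size difference was opposite in L3-B and L3-S.

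**Figure D3:**
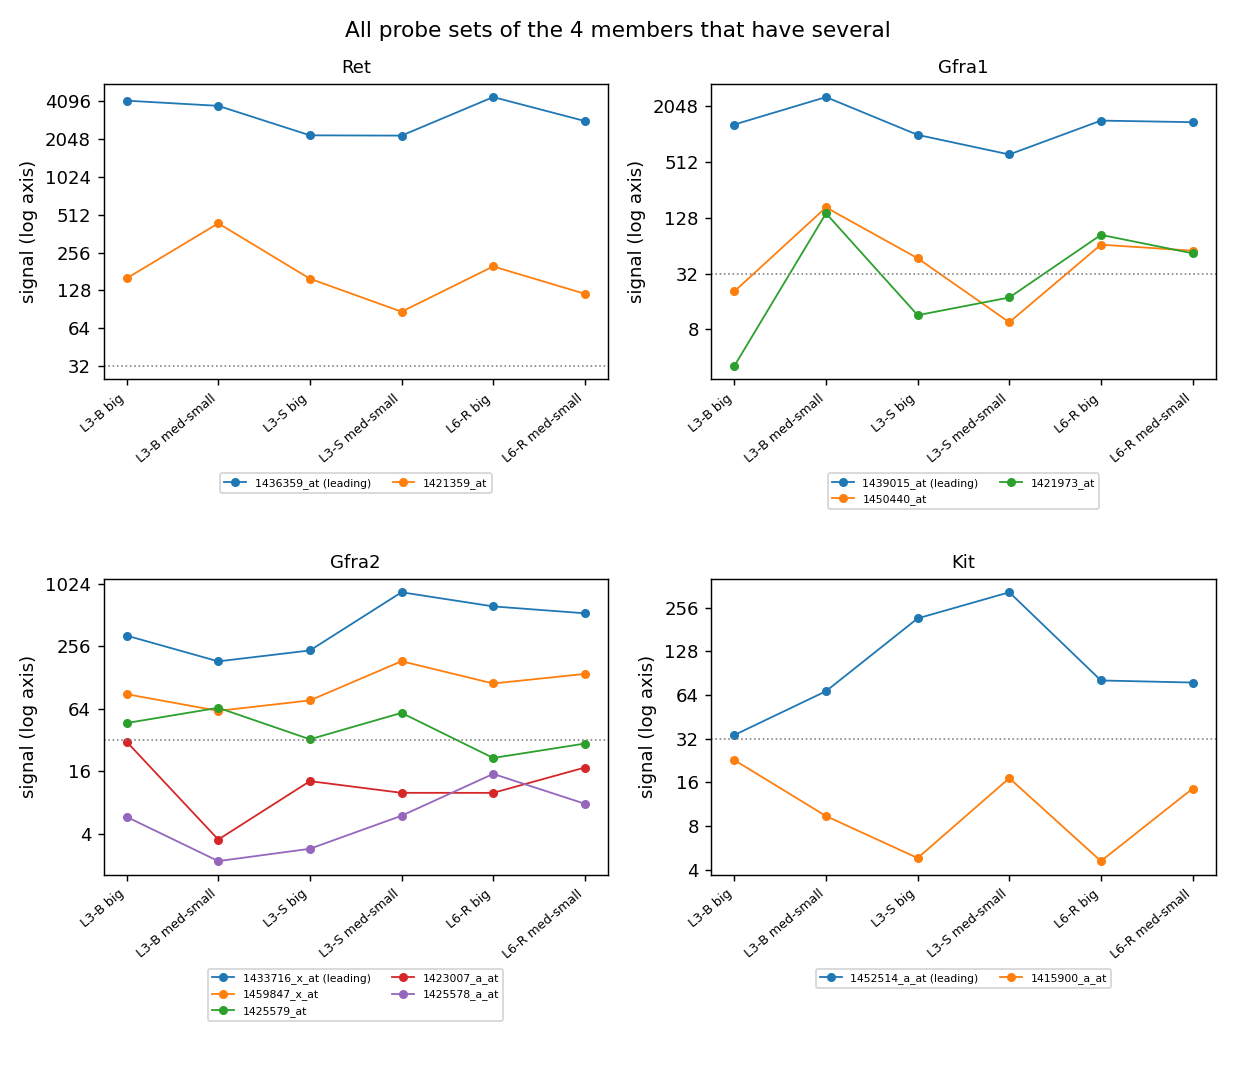
Signal of every probe set of Ret, Gfra1, Gfra2 and Kit (log axis, arbitrary intensity units) on each of the 6 arrays, with 1 point per array; lines join the points of a set, the order of arrays has no meaning, and the dotted line marks a signal of 32. The 3 Gfra1 sets all peak on the L3-B medium to small array, both Gfra2 sets with the suffix x peak on the L3-S medium to small array, and the second Kit set stays under 32.

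Among the ligand genes, only Kitl was tested. Kitl, on chromosome 10, encodes stem cell factor, the ligand of KIT, and read 2687 and 3494 for L3-B, 1582 and 1402 for L3-S, and 890.1 and 678 for L6-R. The arrays of the 3 codes did not overlap. Kitl fell by 1.94 ± 0.25 from L3-B to L6-R (adjusted p = 0.00315), while the steps from L3-B to L3-S (-1.02, adjusted p = 0.128) and from L3-S to L6-R (-0.91, adjusted p = 0.110) did not pass. With the probe sets of Kitl averaged, L6-R minus L3-B was -1.32 (adjusted p = 0.0309). The ligand and receptor genes thus had different orders: Kitl was highest in L3-B and Kit was highest in L3-S. Gdnf (0.7 to 3.0), Artn (0.9 to 20.8) and Pspn (7.5 to 29.7) read under 32 on every array, and Nrtn read 5.7 to 46.2, so these 4 ligands of the GDNF family were not tested.

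Of 2 other receptors for the GDNF family that were tested, 1 rose between L3-B and L6-R, where 7.51% of all genes were called, and none was called in the other comparisons. It was Ncam1, on chromosome 9, a cell adhesion molecule that can act as an alternative GDNF receptor together with GFRα1. Ncam1 read 117.7 and 69.3 for L3-B, 236.0 and 490.3 for L3-S, and 1112 and 900.2 for L6-R, and the L6-R level exceeded that of L3-B by 3.07 ± 0.35 (adjusted p = 0.00162). With the probe sets of Ncam1 averaged, that difference was smaller (1.23, adjusted p = 0.0122). The arrays of the 3 codes did not overlap. Its steps from L3-B to L3-S (1.60, adjusted p = 0.0896) and from L3-S to L6-R (1.46, adjusted p = 0.0721) did not pass. Sdc3, a heparan sulphate proteoglycan that binds GDNF, differed by 0.71 between L6-R and L3-B (adjusted p = 0.108).

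Of 14 tested genes for adaptors and effectors of these receptors, 1 rose between L3-B and L6-R, a share near the 7.51% of all genes called there and so no result about the list, and none was called in the other comparisons. The gene was Gab1, on chromosome 8, a docking protein of receptor tyrosine kinases. Gab1 read 269.5 and 187.1 for L3-B, 304.1 and 302.6 for L3-S, and 573.7 and 624.4 for L6-R, and the rise was 1.29 ± 0.24 (adjusted p = 0.0144). With its probe sets averaged, the rise was 0.79 (adjusted p = 0.0456). It was not called with the L3-B medium to small array left out (1.04, with an adjusted p just above the threshold) or with the L6-R medium to small array left out (1.12, adjusted p = 0.162). The median of the 14 genes was 0.18 in that comparison, 0.13 for L6-R minus L3-S and -0.01 for L3-S minus L3-B.

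Of 5 tested genes of ERK feedback and ETS factors, which are induced downstream of receptor tyrosine kinases, 1 fell between L3-B and L6-R, where 7.51% of all genes were called, and none was called in the other comparisons. Spry4, on chromosome 18, a feedback inhibitor of ERK signalling, read 204.0 and 179.8 for L3-B, 98.8 and 70.0 for L3-S, and 72.2 and 34.9 for L6-R. It fell by 1.42 ± 0.23 (adjusted p = 0.00810), though not past the threshold with the L6-R medium to small array left out (-1.23, adjusted p = 0.105). The median of the 5 genes was -0.62, and all 5 were lower in L6-R than in L3-B in sign. For L3-S minus L3-B the median was -0.57 and for L6-R minus L3-S it was -0.29.

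**Figure D4:**
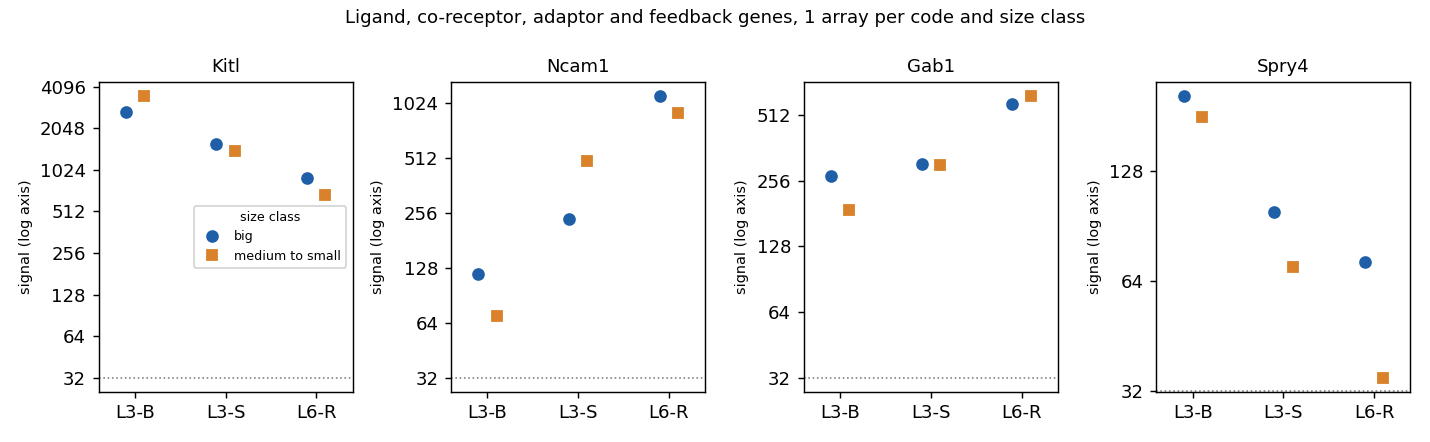
Signal (log axis, arbitrary intensity units, 1 range per panel) by code of Kitl, Ncam1, Gab1 and Spry4, the genes of the 4 ligand, receptor, adaptor and feedback lists that passed in a comparison; circles are big and squares are medium to small neurons, with 1 point per array. Kitl and Spry4 are lowest in L6-R on the medium to small array (678 and 34.9), and Ncam1 and Gab1 have both L6-R points above the other 4.

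Markers of the neuron classes known to carry these receptors were counted in the same comparisons, against the shares of all genes given above. For peptidergic neurons, in which Gfra3 is known, 4 of 6 tested markers rose in L6-R over L3-S, 2 in L3-S over L3-B and 5 in L6-R over L3-B, and none fell. Calcb passed in none of these and differed by -0.03, 0.06 and 0.03 in the same order. Gal (18.9 to 46.0 in L3-B and L3-S) and Trpa1 (1.5 to 56.1) passed the filter on dim genes through L6-R. The counts can therefore lean toward rises in L6-R, though the calls of Gal and Trpa1 held with dim genes kept. Trpv1, the capsaicin receptor, read 18.7 and 19.6 for L3-B, 108.4 and 56.1 for L3-S, and 615.9 and 391.9 for L6-R, and Tac1, the substance P precursor, rose by 1.55 from L3-S to L6-R (adjusted p = 0.0136). That call of Tac1 was lost in 4 of 12 alternatives (adjusted p up to 0.0911), among them with the L6-R medium to small array left out, and those of Trpv1 in none. For non-peptidergic neurons, in which Ret and Gfra2 are known, 2 of 4 tested markers rose in L3-S over L3-B (Runx1 by 2.13, adjusted p = 0.0241, and Plxnc1 by 2.42, adjusted p = 0.00283), the same 2 rose in L6-R over L3-B, and none was called between L6-R and L3-S. The other tested markers, P2rx3 and Scn11a, did not pass. They differed by 0.07 and 0.12 in L3-S over L3-B, and by 0.37 and -0.19 in L6-R over L3-B. The rise of Runx1 in L3-S, whose L3-B signals were 16.6 and 11.4, was lost in 3 of 11 alternatives (adjusted p = 0.122 with dim genes kept, and 0.0617 without the L3-B medium to small array), and that of Plxnc1 with probe sets averaged (1.00, adjusted p = 0.0915). For C-fibre touch neurons, 1 of 3 tested markers, Zfp521, rose in L3-S over L3-B (1.83, adjusted p = 0.0241) and in L6-R over L3-B (1.69, adjusted p = 0.00903). These calls were lost in 4 of 12 alternatives (adjusted p up to 0.260; 0.0703 with the L3-S medium to small array left out) and in 1 of 12 (0.0944 without the L6-R big array). The other tested markers did not pass: Th, which makes dopamine precursors, differed by 1.61 in L3-S over L3-B (adjusted p = 0.186), and Tafa4 by -0.20 there (adjusted p = 0.948) and by -1.34 in L6-R over L3-B (adjusted p = 0.0535).

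For the touch neurons that express Ret early in development, 3 of 4 tested markers (Calb1, Calb2 and Necab2) fell from L3-S to L6-R and 2 (Calb1 and Calb2) fell from L3-B to L6-R. The call of Necab2 was lost in 5 of 12 alternatives (adjusted p up to 0.344), among them without the L3-S big array and without either L6-R array, and both calls of Calb2 with dim genes kept (adjusted p = 0.0541 and 0.0570). Calb1, a calcium-binding protein, read 2493 and 2334 for L3-B, 1976 and 1562 for L3-S, and 226.6 and 224.1 for L6-R. The part of these markers in the Ret levels was not tested. Of 4 tested markers of large neurons, 1 fell from L3-S to L6-R, 1 rose from L3-B to L3-S, and 1 rose and 2 fell from L3-B to L6-R. Genes of the response to axon injury also rose where Gfra3 was high: 5 of 7 rose in L6-R over L3-S, 4 of 7 in L6-R over L3-B, and none was called between L3-S and L3-B, where 1 had an unadjusted p under 0.05. Of these genes, Npy was dim in L3-B and L3-S and passed the filter on dim genes through L6-R. Such counts can therefore lean toward rises in L6-R, though both calls of Npy held with dim genes kept. Npy, a neuropeptide, read 22.2 and 31.5 for L3-B, 24.8 and 17.2 for L3-S, and 849.1 and 1368 for L6-R, and Atf3, a transcription factor, rose by 2.59 from L3-S to L6-R (adjusted p = 0.00254). Sox11, another transcription factor, rose by 2.84 and Sprr1a by 1.45 in that comparison. There the call of Gadd45a, the last of the 5 genes, was lost in 7 of 12 alternatives (adjusted p up to 0.288), among them without either L6-R array or the L3-S medium to small array. The call of Sprr1a was lost in 3 of 11 (without the L3-S big array, without the L6-R big array and with dim genes kept), and that of Sox11 in 2 of 12 (adjusted p = 0.0670 with dim genes kept and 0.115 with a pseudocount of 1). The part of the neuron class markers and of the injury genes in the Gfra3 and Kit differences was not tested.

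Markers of other cell types were present on all arrays to differing degrees. The summed signal of 8 markers of satellite glia and Schwann cells was 9286 to 11352 in L3-B, 9796 to 13245 in L3-S and 12389 to 15069 in L6-R, and 4 of 7 tested rose in L6-R over L3-B. In L3-S over L3-B none of the 7 was called, and 5 were higher and 2 lower in sign. There S100b, the brightest marker in the sum, differed by -0.18 (adjusted p = 0.916). Fabp7 differed by 1.95 (adjusted p = 0.0505), so the sums do not show how single markers ran. The sum of 9 connective tissue and vessel markers was 303.5 to 438.5 in L3-B, 1386 to 1547 in L3-S and 1016 to 1839 in L6-R; of 3 tested, 1 rose in L3-S over L3-B and 3 rose in L6-R over L3-B. The part of these in the Gfra3, Kit and Ncam1 differences was not tested. Of 8 blood and immune cell markers, 6 read under 32 on every array, and their sum was 106.2 to 112.6 in L3-B, 97.9 to 117.2 in L3-S and 162.8 to 265.1 in L6-R.

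Kit is also expressed in mast cells and melanocytes. Of 8 mast cell markers, 6, among them Mcpt4, Tpsb2, Cma1 and Ms4a2, read under 32 on every array, and the summed signal was 86.1 to 118.5 in L3-B, 109.8 to 120.5 in L3-S and 170.3 to 202.6 in L6-R. The exceptions, Cpa3 and Hdc, had their highest signals in L6-R (62.4 and 101.0). Of 5 melanocyte markers, 4 read under 32 on every array and the sum was 61.9 to 98.2 in L3-B, 70.0 to 113.1 in L6-R and, in L3-S, 110.1 in medium to small neurons and more in big neurons, the highest sum of the 6 arrays. Tyrp1, the exception, differed by 0.80 between L3-S and L3-B (adjusted p = 0.192). The part of mast cells and melanocytes in the Kit differences was not tested.

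Over the 6 arrays, the genes whose levels ran most like those of each receptor were found by Pearson's r among 2445 tested genes that ranged over at least 1 log2 (2446 for Gfra4). They were Hey1 (0.925), Psat1 (0.902) and Eaf1 (0.896) for Ret, and Ephx1 (0.976), Spock3 (0.974) and Polr3g (0.968) for Gfra1. Gfra2 ran with Cdc42bpb (0.960), Scand1 (0.959) and Stx1a (0.955), and Gfra4 with Clybl (0.984), Myo9a (0.978) and Tsc22d3 (0.961). For Gfra3 the genes were Slc30a4 (0.996), Trpv1 (0.994) and Ralgps2 (0.994), and for Kit they were Cracd (0.996), Ppm1k (0.979) and Wnt7a (0.977). An r of at least 0.9 was reached by 171 genes for Gfra3, 47 for Kit, 21 for Gfra4, 17 for Gfra2, 10 for Gfra1 and 2 for Ret. These are descriptions across 6 arrays that share codes and size classes, and high values are common with so few arrays. Among the receptors themselves, r was 0.70 for Ret with Gfra1, -0.87 for Ret with Kit, -0.75 for Gfra1 with Kit and -0.83 for Gfra2 with Gfra4.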

How the data were processed

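The deposited table, mapped to the 6 samples by its column labels, holds linear signal intensity as the authors processed it for 45037 probe sets and 64 control probe sets. How probes were summarised and scaled is not given in the sources used here. Because each array's trimmed mean was 150.001, the values were taken as already scaled and were not normalized again. The number of arrays limits precision.

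Levels are log2(signal + 32), a scale that understates folds of low signals. Of the probe sets, 34945 carried 1 symbol in the platform annotation, 932 several and 9160 none; a current gene table (GRCm38.p6) changed 0 symbols and gave the chromosomes. The upper 50% of 18193 genes by mean level (9097 genes, minimum 6.41) were tested, by leading probe set. R 4.3.3 with limma 3.58.1 fitted an additive model of both factors (lmFit, eBayes, all 6 arrays, 2 residual and 6.46 prior degrees of freedom, two-sided, Benjamini-Hochberg, threshold 0.05). The model takes code differences as alike in both size classes, since an interaction leaves no residual. The procedure was tested on simulated data with independent noise and code differences alike in both size classes. Such data cannot show how it performs where the additive model fails or RNA quality differs.

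The receptors and gene lists were chosen with earlier results of these data known. All 6 genes are named; from the ligand, receptor, adaptor, feedback and injury lists, genes past the threshold, at most 4 per list and comparison; and the 3 genes with the highest r for each receptor. Marker genes of cell classes, Gadd45a and Sdc3 were named after their values were seen. The alternatives tried were a pseudocount of 1 or 128, quantile normalization, keeping dim genes, averaging the probe sets of a gene, the Actb ratio as a covariate, leaving out each array, and, chosen after seeing the data, Gfra2 without sets of the x design. The covariate, and each left-out array, leave fewer residual degrees of freedom than the main fit. Calls gained only in those fits are not read as support.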

Additional observations from a re-analysis of the deposited data

Results flagged for a closer look

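For 3 of the receptors, a difference between 2 arrays had opposite signs, each at least 0.5 log2, in different size classes or codes. Each value comes from 1 array against 1 array, and the difference between the paired values was not tested, because no replicate of a combination exists. Gfra1 was lower in big than in medium to small neurons in L3-B (-0.97) and higher in L3-S (0.67). Gfra2 was higher in big neurons in L3-B (0.73) and lower in L3-S (-1.73), and its difference of L6-R from L3-S was 1.29 in big and -0.64 in medium to small neurons. Gfra4 was lower in big neurons in L3-B (-0.69) and higher in L3-S (0.55), and its difference of L3-S from L3-B was 0.55 in big and -0.70 in medium to small neurons. The Actb 3′ to 5′ ratio also took opposite orders in these codes: it was 13.9 in big and 3.73 in medium to small neurons of L3-B, and 5.42 and 12.0 in L3-S. The part of this ratio in the opposite signs was not tested.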

How the results depend on the processing

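Both Gfra3 calls held under all 12 alternatives run for each, with a difference of 1.20 to 2.07 for L6-R minus L3-S (adjusted p 2.26e-05 to 0.0386) and 1.70 to 3.64 for L6-R minus L3-B (adjusted p 6.42e-08 to 0.00561). Kit kept its direction in both of its calls and lost the call in 5 of 12 alternatives for L6-R minus L3-S and 2 of 12 for L3-S minus L3-B. Genes called for L6-R minus L3-S numbered 289, against 137 with a pseudocount of 1, 107 without the filter and 994 with the Actb ratio as a covariate; leaving out 1 array gave 140 (either L6-R array) to 653 (either L3-B array). For L3-S minus L3-B, 93 genes became 46, 14 and 512 under those settings and 41 with probe sets averaged per gene, and leaving out 1 array gave 61 (L3-S medium to small) to 202 (L3-B big), with 193 without L3-S big and 171 without either L6-R array. For L6-R minus L3-B, 683 genes became 1590 with the covariate, and leaving out 1 array gave 356 (L6-R medium to small) to 995 (either L3-S array), with 359 without L6-R big. Size gave 2 genes with the covariate and 0 to 1 when 1 array was left out. Of the 6 receptors, the number called for L6-R minus L3-S was 1 with a pseudocount of 1, without the filter and with the mean of probe sets, and 1 to 2 when 1 array was left out. For L3-S minus L3-B it was 0 without the filter and with the mean of probe sets, 4 with the covariate, and 1 to 3 without 1 array; for L6-R minus L3-B it was 2 with the covariate and 1 to 2 without 1 array. Signs reversed 22 times, all in differences that had not passed. With the covariate the size difference of Gfra1 was 0.0524, and with the higher pseudocount that of Gfra4 was -0.0013. Without the sets of the x design, Gfra2 gave -0.20 for L3-S minus L3-B, -0.61 for L6-R minus L3-B and -0.41 for L6-R minus L3-S. When 1 array was left out, the size difference ran from -0.46 to 0.36 for Gfra1, -0.76 to 0.47 for Gfra2 and -0.26 to 0.36 for Gfra4. L6-R minus L3-B then ran from -0.43 to 0.13 for Ret, -1.04 to 0.29 for Gfra1 and -0.98 to 0.0723 for Gfra4; L3-S minus L3-B from -0.29 to 1.90 for Gfra2 and -0.60 to 0.45 for Gfra4; and L6-R minus L3-S from -0.77 to 1.42 for Gfra2 and -0.79 to 0.0307 for Gfra4. The cause was not tested. Size class was already a block in the comparisons of codes; no interaction, and no block by replicate number, could be fitted, since each combination of code and size class has 1 array.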
